A study of Danio rerio with 3 samples.

Results

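Of 10 listed immediate early and Socs feedback genes, 9 were measured in whole zebrafish embryos exposed to LY-364947, which blocks the kinase of TGF-β receptor 1. The list was socs3a, socs3b, stat3, fosab, fosl1a, junba, junbb, egr1, btg2 and ier2b, and a probe belonged to a gene where the platform's annotation gave that symbol. This gave 17 probes for 9 of the 15571 genes with a symbol. No probe carried the symbol ier2b, and it is not analysed here.

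Treated embryos were wild type (strain Ab), obtained by timed mating, with 40 µM LY-364947 added to their medium at 8 hours post fertilisation until harvest at 48 hours. Controls are labelled untreated, with no mention of a solvent. Each of 3 treated replicates held 10 to 15 whole embryos and was set on a 2-colour array of its own against 1 pool of 3 untreated replicates, so every ratio contains the same pool. The dye of treated RNA was Cy3 for replicates 1 and 3 and Cy5 for replicate 2. A whole-embryo extract does not tell fewer cells of a type from less RNA per cell.

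The values are log ratios between treated embryos and the pool. No intensities are given, so presence of a tissue's markers could not be checked as a level. Signs follow replicates 1 and 3, and the ratios of the dye-swapped replicate 2 were turned to match. A negative value means lower in treated embryos if the ratio runs as the sample titles name it, and higher if it is Cy5 over Cy3. The labels do not settle this, so genes are placed on the negative or the positive side. The log base is not stated. Base 2 was taken as likely, since the largest value in the table, 3.98 in size, is a 15.8-fold ratio on base 2 and a 9524-fold ratio on base 10, and every fold below is on base 2. The number of arrays limits the precision, and the untreated embryos' own spread is not measured.

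Immediate early genes are transcribed within minutes of a stimulus, without new protein synthesis, and many encode transcription factors such as the Fos, Jun and Egr proteins. Fos and Jun proteins pair to form AP-1, which binds regulatory sequences of growth, stress and wound response genes. Cytokine receptors of the interleukin-6 family act through Jak kinases on Stat3, which enters the nucleus and induces Socs3, and Socs3 in turn binds receptor and kinase and shuts the signal off.

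On every array, 6 of the 9 genes lay on the negative side: socs3a, socs3b, btg2, fosab, junbb and junba. Their mean ratios ran from -0.87 for socs3a to -0.46 for junba, or from 1.83-fold to 1.38-fold. The remaining genes, stat3, fosl1a and egr1, had ratios of both signs, with means between -0.05 and 0.02. Of all 15571 genes, 26.4% were negative on all 3 arrays. With either sign it was 52.3%. The genes were selected on mean ratios from these same arrays, so these values are a description and carry no test.

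**Figure D1:**
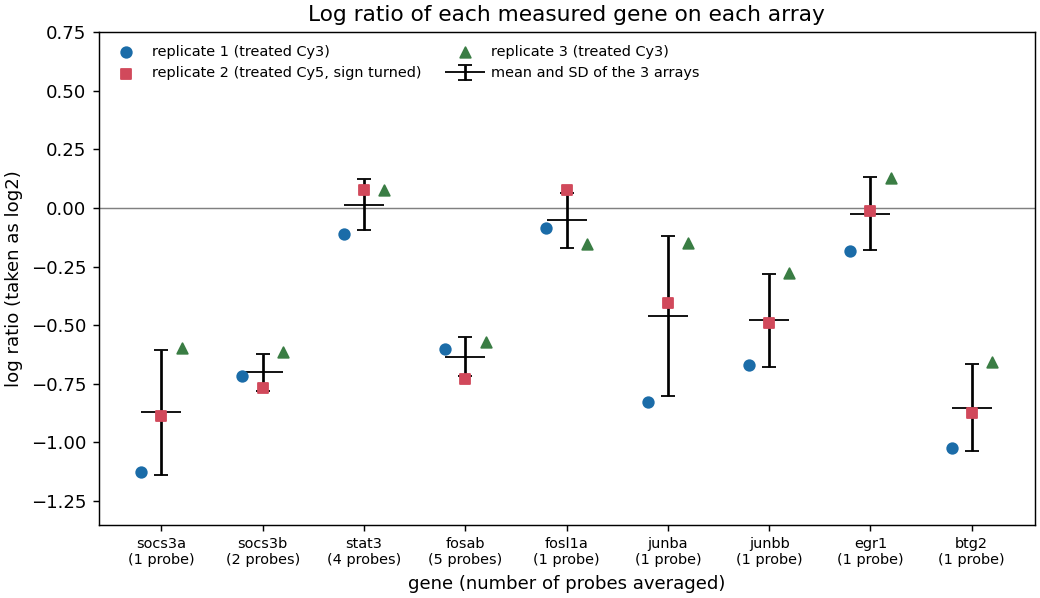
Log ratio (y axis, taken as log2) of each of the 9 genes (x axis) on each of the 3 arrays, with points by array and bars for mean ± SD (n = 3). The points of socs3a, socs3b, fosab, junba, junbb and btg2 all lie below 0, between -1.13 and -0.15, while those of stat3, fosl1a and egr1 lie on both sides of 0.

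Among the Socs feedback genes, socs3a had log2 ratios of -1.13, -0.89 and -0.60 on replicates 1, 2 and 3. All were on the negative side, with replicate 1 the lowest and replicate 3 the nearest to 0. The mean was -0.87 ± 0.27 (SD, n = 3), a 1.83-fold difference measured by 1 probe, and it ranked 49th from the negative end of all genes.

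Its paralog socs3b had -0.72, -0.77 and -0.61 on replicates 1, 2 and 3, a mean of -0.70 ± 0.08 (SD, n = 3) or 1.62-fold. The arrays lay closer together than for socs3a. The difference socs3a minus socs3b was -0.41, -0.12 and 0.02 on replicates 1, 2 and 3, so neither paralog was the lower of the pair on every array.

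The 2 probes of socs3b stood apart. One averaged -0.93 ± 0.04 and the other -0.47 ± 0.12 (SD, n = 3 each), with the same probe the lower on all arrays and a gap of 0.46 ± 0.09. The gap was larger than that of 97.8% of the other 4510 genes with 2 probes, whose median gap was 0.09. The genes compared here, and those for stat3 and fosab below, were not matched for the size of their ratio. Both probes were negative on every array, and which of them tracks the transcript more closely is not known from these values.

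For stat3, which encodes the transcription factor that induces Socs3, the ratios were -0.11, 0.08 and 0.08 on replicates 1, 2 and 3. They lay on both sides of 0, with a mean of 0.02 ± 0.11 (SD, n = 3). Its 4 probes had means between -0.06 and 0.07, a spread of 0.13, against a median spread of 0.23 over 287 genes with 4 probes. None of the 4 had 1 sign on all arrays. These are RNA ratios, and the activity of the Stat3 protein was not tested.

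Of the AP-1 genes, fosab, the zebrafish counterpart of c-Fos, rests on the most probes. Its ratios were -0.60, -0.73 and -0.57 on replicates 1, 2 and 3, with a mean of -0.63 ± 0.08 (SD, n = 3), a 1.55-fold difference. The 5 probes had means from -0.91 to -0.45, and each was negative on each array. Their spread of 0.46 was larger than that of 80.3% of the other genes with 5 probes, whose median over 67 genes was 0.30. The spread between probe means of 0.46 for both fosab and socs3b exceeded the range between arrays of the averaged probes, 0.15 for each gene. Some single probes of both genes ranged more widely between arrays than their average did. The sign was the same for every probe.

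**Figure D2:**
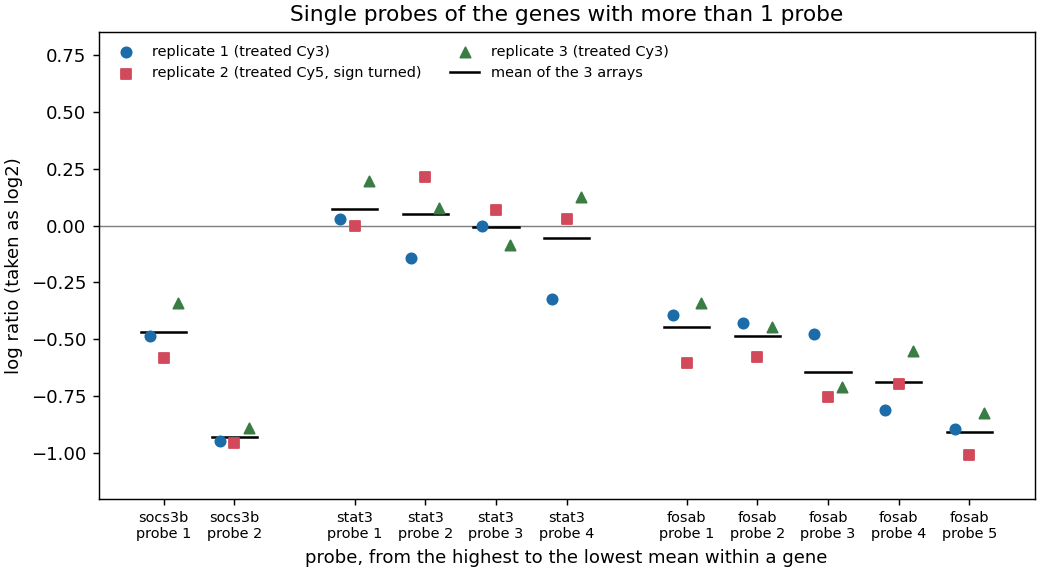
Log ratio (y axis, taken as log2) of each probe (x axis) of socs3b, stat3 and fosab on each array, with a line at the mean of the 3 arrays. Both socs3b probes and all 5 fosab probes lie below 0 on every array, with means from -0.93 to -0.45, and the 4 stat3 probe means lie between -0.06 and 0.07.

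The JunB paralogs, whose products pair with Fos proteins, lay close to each other. The junbb ratios were -0.67, -0.49 and -0.28 on replicates 1, 2 and 3, with a mean of -0.48 ± 0.20 (SD, n = 3), or 1.39-fold. Those of junba were -0.83, -0.41 and -0.15, with a mean of -0.46 ± 0.34, or 1.38-fold. Each was lowest on replicate 1 and nearest to 0 on replicate 3. The difference junba minus junbb averaged 0.02 ± 0.15 and changed sign between arrays. The SD of junba exceeded that of 98.5% of all genes, and without replicate 1 its mean was -0.28, against -0.62 without replicate 3. The SD of socs3a exceeded that of 96.5% of all genes, whereas those of socs3b and fosab lay nearer the middle, above 40.9% and 43.6%.

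The Fos-related gene fosl1a, encoding the AP-1 subunit Fra-1, had -0.08, 0.08 and -0.15 on replicates 1, 2 and 3. The arrays lay on both sides of 0, and the mean was -0.05 ± 0.12 (SD, n = 3).

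The zinc finger gene egr1, a widely used marker of recent stimulation, had -0.18, -0.01 and 0.13. It too crossed 0, with a mean of -0.02 ± 0.16 (SD, n = 3). Of all genes, 15.8% had a mean ratio smaller in size. Both fosl1a and egr1 rest on 1 probe each.

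The antiproliferative gene btg2, a p53-inducible immediate early gene in mammals, had -1.02, -0.88 and -0.66 on replicates 1, 2 and 3. All were well below 0, with a mean of -0.85 ± 0.19 (SD, n = 3), a 1.81-fold difference by 1 probe. It ranked 53rd from the negative end of all genes, where socs3a ranked 49th.

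**Figure D3:**
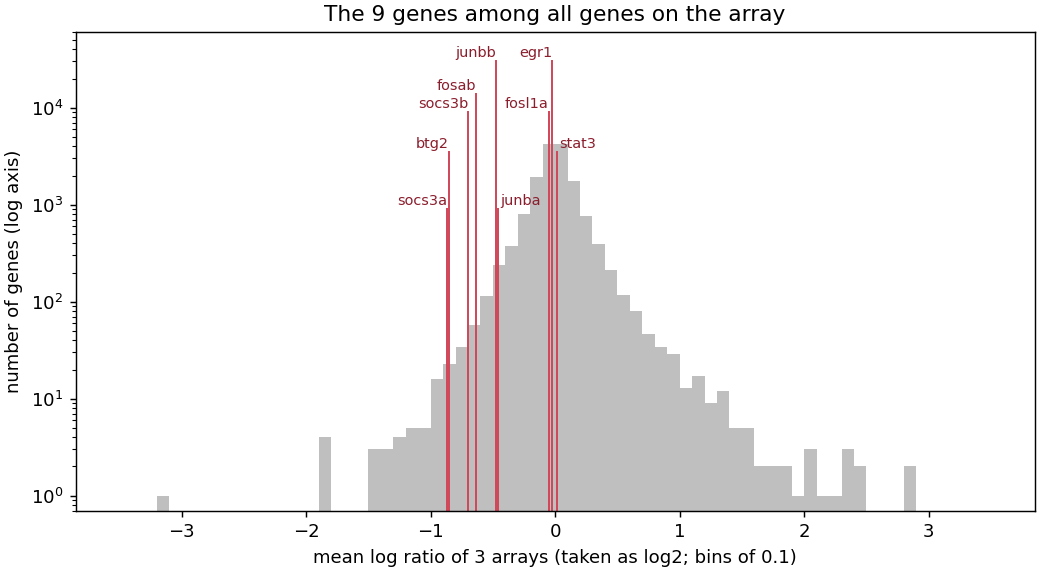
Number of genes (y axis, log scale) by mean log ratio of the 3 arrays (x axis, taken as log2, in bins of 0.1) for 15571 genes, with the 9 genes as vertical lines whose heights only separate the labels. The lines of 6 genes stand in the negative tail between -0.87 and -0.46, and those of stat3, fosl1a and egr1 stand within 0.06 of 0.

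The mean ratio against 0 was also fitted over the whole table with limma, adjusting p by Benjamini-Hochberg over all genes. Of the 15571 genes, 3013 (19.4%) had an adjusted p under 0.05, of which 1468 (9.43%) were negative and 1545 (9.92%) positive. The 6 genes named above passed that threshold and stat3, fosl1a and egr1 did not; since these ratios were in view when the genes were chosen, nothing is read from that count. Of these 6, junba did not pass without replicate 1, and neither junba nor junbb without replicate 2, at mean ratios of -0.28, -0.49 and -0.47. At least 2-fold mean ratios were found for 105 genes (0.674%), and for 0 of the 9.

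With probes averaged, the order of the arrays was similar among the 6 negative genes. Replicate 3 was the array nearest to 0 in 6 of 6, and replicate 1 the lowest in 4 of 6, with replicate 2 the lowest for socs3b and fosab. For fosab this rests on the averaging, at -0.57 on replicate 3 against -0.60 on replicate 1. Its probes with means of -0.48 and -0.65 were nearest to 0 on replicate 1 instead. They had -0.43 and -0.48 there, against -0.44 and -0.71 on replicate 3. Among the 1468 genes called on the negative side, replicate 3 was the highest in 36.9% and replicate 1 the lowest in 41.4%. The arrays' medians over all genes were between -0.01 and 0.003. The 6 genes were read from the same 3 arrays and are not independent of each other. The dye coefficient, fitted from replicates 1 and 3 against replicate 2, lay between -0.10 for fosl1a and 0.07 for fosab, against an SD of 0.065 over all genes.

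Genes outside the 9 were ranked by root mean square difference over the 3 arrays, with clone symbols (those with a colon) passed over. Among them, the ratios most like those of socs3a were of snap23.2 (0.086), krcp (0.090), pou3f3a (0.116), tktb (0.119) and gsx1 (0.126). Those most like fosab were haus4 (0.027), vwa5a (0.060), znf1156 (0.068), rx1 (0.068) and mcm2 (0.080). The means of the first 5 lay between -0.95 and -0.77, and those of the others between -0.70 and -0.59.

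The closest relatives of these genes split between both sides. Of 37 listed paralogs, 26 were measured, and by limma 5 negative and 4 positive ones had an adjusted p under 0.05, while 17 did not pass. The 9 calls were 34.6% of those measured, against 19.4% over all genes. This list and those below were drawn up with earlier results of these data known, so their shares are descriptions only. The median ratio of the 26 was -0.01, against -0.001 over all genes. On the negative side were the AP-1 genes jun, at -0.36 ± 0.17 (adjusted p = 0.0156), and fosl2, at -0.28 ± 0.08 (0.014), with the immediate early gene ier5 at -0.41 ± 0.12 (0.00502) and btg3, a relative of btg2, at -0.35 ± 0.11 (0.00787). The fifth was ier2a, the paralog of the unmeasured ier2b, with -0.50, -0.41 and -0.10 on replicates 1, 2 and 3 and a mean of -0.34 ± 0.21 (adjusted p = 0.0308).

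The positive paralogs were cisha, a Socs family feedback gene of Stat5 signalling in mammals, at 0.42 ± 0.05 (limma adjusted p = 0.00249), ier5l at 0.44 ± 0.25 (0.0173), egr3 at 0.29 ± 0.15 (0.0271) and btg1 at 0.32 ± 0.23 (0.0441). The 2 probes of cisha differed, at 0.22 and 0.61, and 1 of them passed on its own. The same held for ier5l, with probes at 0.33 and 0.56. The btg1 and btg2 ratios thus had opposite signs on every array. Of 10 measured genes of the Socs and Cish family other than socs3a and socs3b, cisha was the 1 that passed, against 19.4% of all genes. By limma 3 of the 10 had an unadjusted p under 0.05, against 5054 of 15571 over all genes. The means of the 9 other than cisha lay between -0.19 and 0.13. For example, socs1a had 0.03 ± 0.08 and socs2 0.08 ± 0.06. The AP-1 gene jund, at -0.12 ± 0.06, and egr2b, at -0.002 ± 0.060, did not pass, nor did any of the 3 other measured Stat genes, of which 0 had an unadjusted p under 0.05 either. Without replicate 2 the 9 calls fell to 3, of cisha, ier5 and jun, in a fit with 1 residual degree of freedom. Egr3 and ier2a lost their calls without replicate 1 too, jun only without replicate 1, and btg1 without replicate 3 as well, at mean ratios of 0.20, -0.26, -0.33 and 0.20.

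Other immediate early genes lay on both sides. Of 56 listed, 49 were measured, and by limma 15 passed with a negative and 6 with a positive ratio, while 28 did not pass; the median was -0.07. Over all genes 9.43% passed with a negative and 9.92% with a positive ratio, so the 15 negative calls were above that share and the 6 positive ones, of 49, near it. Largest was the stress-induced transcription factor gene atf3, with -0.87, -0.87 and -0.86 on replicates 1, 2 and 3, a mean of -0.87 ± 0.01 (SD, n = 3; limma adjusted p = 0.000137). Its arrays lay closer together than those of the 6 negative genes. The phosphatase gene dusp1, which switches off MAP kinases, stood at -0.57 ± 0.10 (adjusted p = 0.00123), cebpd, a C/EBP transcription factor of the acute phase, at -0.68 ± 0.11 (0.000717), and gadd45gb.1, of the Gadd45 stress family, at -0.75 ± 0.17 (0.000971). Of 6 measured gadd45 genes, 4 passed with a negative and 1 with a positive ratio.

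The positive ones included the orphan nuclear receptor genes nr4a2b, at 0.49 ± 0.08 (limma adjusted p = 0.00175), and nr4a2a, at 0.41 ± 0.02 (0.00232), with klf11a, a Krüppel-like factor induced by TGF-β in mammals, at 0.76 ± 0.32 (0.00471) and ccn2a, a matricellular growth factor gene, at 0.47 ± 0.15 (0.00455). All 4 nr4a and all 6 klf genes measured had positive means, against 7723 of 15571 over all genes. In each family 2 passed, where 9.92% of all genes passed with a positive ratio. The genes nr4a1, nr4a3, klf2b and klf6a did not pass and had ratios of both signs. The Erk phosphatase gene dusp6, a readout of FGF signalling, had 0.18, -0.15 and -0.12, with a mean of -0.03 ± 0.19, and did not pass. Without replicate 2 the 21 calls fell to 11, with 1 residual degree of freedom, and that of ccn2a was lost at a mean ratio of 0.43. The other 7 genes named as passing in these 2 paragraphs on immediate early genes kept their calls when any 1 array was left out.

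**Figure D4:**
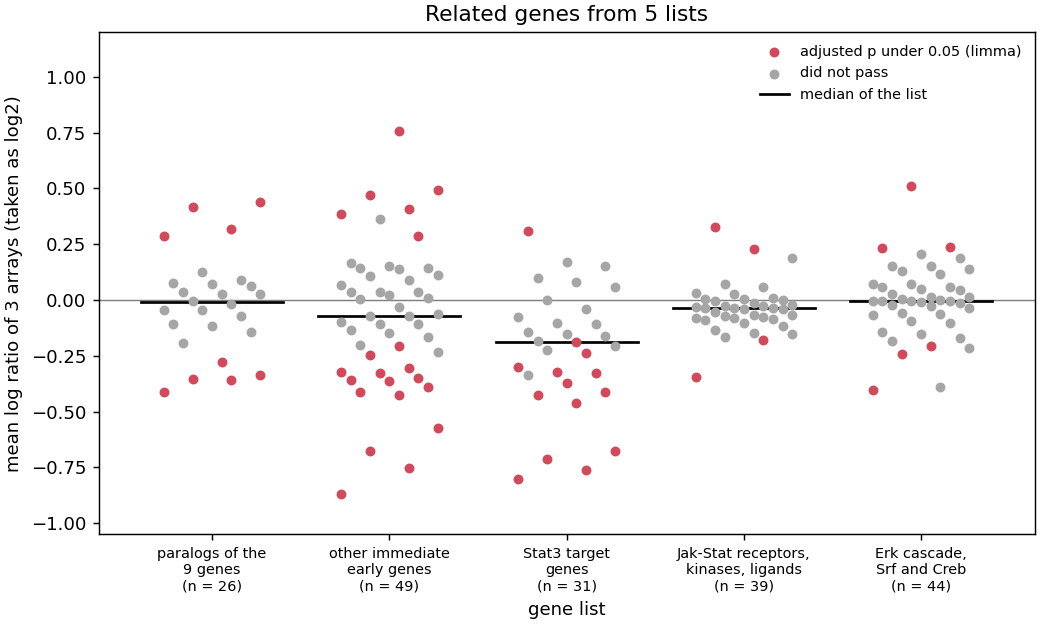
Mean log ratio of the 3 arrays (y axis, taken as log2) of each measured gene in 5 lists (x axis), red where limma's adjusted p was under 0.05 and grey where it was not, with a line at each list's median. The medians run from -0.19 for Stat3 targets to -0.004 for the Erk cascade, and called genes lie on both sides in every list.

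Target genes of Stat3, most of them known from mammals, had negative means in 25 of 31 measured (36 were listed), against 7848 of 15571 over all genes. By limma 13 negative and 1 positive gene passed, and 17 did not, which makes 45.2% called, against 19.4% of all genes (9.43% negative, 9.92% positive). Since earlier results were known when the list was drawn up, this share is a description only. The list holds junba, 1 of the 9 genes; without it, 12 of 30 passed with a negative ratio, and the median was -0.19. It shares cebpd, cebpb, myca, mcl1a and mcl1b with the immediate early list, so the counts of both lists overlap by 4 calls, all negative. The C/EBP gene cebpb stood at -0.41 ± 0.11 (adjusted p = 0.00471), myca, of the Myc family, at -0.43 ± 0.06 (0.00249), and mmp9, a matrix metalloproteinase, at -0.76 ± 0.31 (0.00451). The positive gene was lcn15, a lipocalin, at 0.31 ± 0.02 (0.00662). Without replicate 2 the calls fell to 6, all negative, with 1 residual degree of freedom, and lcn15 was lost at 0.32.

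The list of Jak-Stat ligands, receptors and kinases showed small ratios. It is wider than its name, since it also holds Pias and Stam genes, sh2b3 and phosphatases such as ptpn1. Of 53 listed, 39 were measured, by limma 2 passed on each side and 35 did not pass, and the median was -0.04. These calls were 10.3% of the list, below the 19.4% over all genes. Means were negative in 29 of the 39, against 7848 of 15571 over all genes. The receptor gene cntfr stood at 0.33 ± 0.13 (limma adjusted p = 0.0139), the kinase gene jak3 at 0.23 ± 0.03 (0.0201), the receptor gene il4r.1 at -0.34 ± 0.21 (0.0302) and the phosphatase gene ptpn1 at -0.18 ± 0.02 (0.0457). The genes jak3, il4r.1 and ptpn1 had 2 probes each, of which 1 passed on its own. The kinase gene jak1 had -0.07 ± 0.06 and did not pass. Neither il6st, the shared receptor of the interleukin-6 family, nor il6 itself is analysed here. Without replicate 1 the 4 calls fell to 1, without replicate 2 to 0 (3 at an unadjusted p under 0.05) and without replicate 3 to 3.

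Stimuli reach the fos and egr1 promoters through the Erk cascade, Srf and Creb, and the list of these genes showed small ratios too. It is wider than that route, since it also holds p38 kinases, Ets factors such as etv4 and inhibitors such as spred2b. The arrays measure RNA, so the activity of these proteins, and of the Jak kinases above, was not tested. Of 61 listed, 44 were measured, by limma 3 passed on each side and 38 did not pass, with a median of -0.004. At 13.6%, the share called was again below the 19.4% over all genes. The positive calls were etv4, an Ets factor induced by FGF, at 0.51 ± 0.06 (limma adjusted p = 0.00135), spred2b, an inhibitor of the cascade, at 0.24 ± 0.07 (0.0237), and the kinase gene rps6ka3a at 0.23 ± 0.13 (0.0461). The negative ones were raf1b, at -0.24 ± 0.05 (0.0181), mapk14a, of the p38 kinases, at -0.21 ± 0.05 (0.0333), and mrtfab, a cofactor of Srf, at -0.40 ± 0.29 (0.038), with -0.74 on replicate 1 and -0.25 and -0.21 on the other arrays. For mapk14a 1 of 2 probes passed on its own, and the only probe of rps6ka3a did not pass among all probes. Of the genes of Srf itself, srfa had -0.03 ± 0.06 and did not pass. Its paralog srfb had -0.17 ± 0.16, negative on every array, with probe means of -0.33 and -0.006. It did not pass either (limma adjusted p = 0.151). Of the 6 calls, that of etv4 was the 1 that held when replicate 1 or replicate 2 was left out. Without replicate 3 there were 9 calls, 7 of them negative. Among these 9 were neither rps6ka3a nor mapk14a, at mean ratios of 0.17 and -0.18 without that array.

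Marker genes of several tissues moved on these arrays, where 9.43% of all genes passed with a negative and 9.92% with a positive ratio. Of measured neural progenitor markers, 17 of 22 passed with a negative ratio by limma and 1 with a positive one, and the median was -0.61. Among these 17 was gfap, at -0.24, which is also counted among the Stat3 targets. Positive ratios passed for 13 of 21 neuronal, 14 of 20 lens and 10 of 22 skeletal muscle markers; negative ones passed for 0, 0 and 1, or 1, 0 and 1 at an unadjusted p under 0.05. For the epidermis, 6 of 20 passed with a positive and 2 with a negative ratio, the latter near the share over all genes. Of 19 markers of innate immune cells, 2 passed (10.5%, against 19.4% of all genes), mmp13a at -0.56 and lyz at -0.25, and the list's median was 0.01. The part of any of these tissues in the ratios of socs3a, socs3b, btg2, fosab, junba and junbb was not tested.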

How the data were processed

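The authors deposited 1 log2 ratio per probe and array, with the base taken as likely. The submitters' processing notes name Partek; the sources used here give no background correction, normalisation or numerator. Of 43648 probes, 45 controls were left out; 23717 had 1 gene symbol and 19886 none. Probes with the same symbol were averaged, and a symbol with more than 1 Entrez identifier was split by identifier, giving 15571 genes. Over all probes, replicate 2 as deposited had r = -0.742 with replicate 1 and -0.647 with replicate 3, so its sign was turned.

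Each gene's mean ratio was compared with 0 by limma 3.58.1 (R 4.3.3; lmFit, eBayes; 2 residual degrees of freedom), and p was adjusted by Benjamini-Hochberg over all genes at 0.05. The fit was tested on simulated data with independent noise and planted changes of at least 2-fold. None of the 9 genes reached that size, so the test does not cover ratios like theirs, nor the shared pool. The pool counts as 1 control sample, so its error is left out. Related genes were named as up to 4 per list and side with the smallest adjusted p, plus 15 by symbol, of which 13 were measured. Members and lists were chosen with earlier results of these data known. Alternatives changed arrays, dye, scaling, probe rule, prior and thresholds. Close paralogs may share probe sequence, and overlapping or antisense transcripts were not separated. Plots used matplotlib 3.10.9.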

Additional observations from a re-analysis of the deposited data

How the results depend on the processing

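No paired analysis was possible because the series has 1 group of ratios against 1 pool. Of 81 recomputed mean ratios of the 9 genes, 79 moved by less than the SD of the 3 arrays. The others were socs3b and fosab, at -0.47 and -0.45 when the probe nearest to 0 stood for the gene. Leaving out 1 array or adding a dye term cannot move a mean by a full SD of 3 arrays. Genes with 1 probe cannot move under the probe rules. The count of 79 was thus largely fixed in advance and is no measure of stability. The means of stat3 and egr1 changed sign when 1 array was left out (stat3 to -0.02 without replicate 2 or 3, egr1 to 0.06 without replicate 1). Leaving out 1 array, the calls ran from 1041 to 3693 over all genes, 4 to 6 for the 9 genes, 3 to 8 for paralogs, 11 to 21 for other immediate early genes, 0 to 3 for Jak-Stat, 6 to 18 for Stat3 targets and 1 to 9 for the Erk cascade. These fits have 1 residual degree of freedom. With a dye term, also with 1, the calls were 1465 over all genes, 5, 13, 0 (5 at an unadjusted p under 0.05), 9 and 1 for the 5 lists in that order, and 5 for the 9 genes. At an adjusted p of 0.01 they were 1434 over all genes, 3 for paralogs, 0 for Jak-Stat, 7 for Stat3 targets and 1 for the Erk cascade. Requiring at least 2-fold left 104 over all genes and 0 for the 9 genes and each of the 5 lists. With the probe nearest to 0, Jak-Stat had 2 calls. Centring, scaling, quantile normalisation, the median of probes and a robust prior kept all counts within 1.5 times. Signal over background is unknown, so dim probes could not be left out.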
